A study of Danio rerio with 25 samples.

Results

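The genes of oxidative phosphorylation are encoded by 2 genomes. They were taken by symbol, ignoring case. The nuclear set held every gene whose symbol starts with nduf, sdha, sdhb, sdhc, sdhd, uqcr, cox4i, cox5, cox6, cox7, cox8, cyc1 or atp5, without the assembly factors ndufaf and sdhaf. The mitochondrial set held the 13 protein genes of mitochondrial DNA. Of 31901 genes in the count files, 110 were members, 97 nuclear and 13 mitochondrial. The rule reads symbols only. By symbol, 42 nuclear members belong to complex I, 5 to complex II, 9 to complex III, 21 to complex IV and 20 to complex V. The mitochondrial members hold 7 subunits of complex I, 1 of complex III, 3 of complex IV and 2 of complex V.

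The series profiled small pools of cells sorted as cardiomyocytes from adult zebrafish hearts. All groups carry the same 2 transgenes, sox10:CreERT2, an inducible Cre driven from sox10, and vmhcl:loxP-tagBFP-loxP with mCherry-NTR behind it, a reporter driven from vmhcl, a myosin gene of ventricular cardiomyocytes. Recombination replaces blue tagBFP by red mCherry fused to nitroreductase, so the RFP gate holds recombined cells and the BFP gate cells that were not recombined. Each of the 25 libraries came from 20 sorted cells and was prepared with Smart-seq2, a full-length cDNA method without molecular identifiers. The groups were CI_RFP with 12 libraries and CI_BFP with 3 from hearts after cryoinjury, a freezing wound of the ventricle, and UN_RFP with 6 and UN_BFP with 4 from uninjured hearts. The labels name no animal, sort or day, no time after injury and no age beyond adult. The p-values below are thus set by library-to-library spread alone, part of which may be technical. In such pools, fewer cells of a type and less RNA per cell cannot be told apart.

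Oxidative phosphorylation passes electrons from NADH and succinate through complexes I to IV of the inner mitochondrial membrane to oxygen, and complex V, the ATP synthase, uses the resulting proton gradient to make ATP. Complex II is encoded by the nucleus alone, while complexes I, III, IV and V combine nuclear subunits with a few core subunits made inside the mitochondrion from its own DNA. The mitochondrial messages are cut from long transcripts that span many genes, whereas each nuclear gene has its own promoter. Heart muscle is rich in mitochondria, and several cytochrome oxidase (complex IV) subunits have separate striated muscle and broadly expressed forms in mammals.

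Library totals lay between 5644279 and 11981012 counts (median 8802372). The number of detected genes was 1226 to 15380, and the lowest were UN_RFP 5 with 1226, CI_RFP 5 with 3874 and UN_RFP 1 with 5008. These 3 were left out together in one alternative, although UN_RFP 4 with 5314 and CI_RFP 8 with 5886 lay close to the third. Levels below are CPM, counts as a rate per library total scaled by TMM, not corrected for gene length, so levels are compared between libraries and not between genes. A library's floor of 3 counts corresponded to 0.203 to 0.608 CPM on this scale, which covers counting error only. All 13 mitochondrial members had a count in all 25 libraries. Of the nuclear members, 50 had one in every library and 85 in every library other than UN_RFP 5, where 51 were detected. The filter on low counts kept 93 nuclear and all 13 mitochondrial members. NDUFB4 and ndufa4l2b had no count in any library, NDUFA4L2 had one in 1 library, and NDUFS1 had at most 14 counts in a library. A list of 22 cardiomyocyte markers was detected in all 4 groups, but its summed level differed widely. It ran from 2069 to 250329 CPM with a median of 37157 in CI_RFP, from 6410 to 14942 in CI_BFP, from 8520 to 128961 with a median of 36468 in UN_RFP, and from 1326 to 16686 in UN_BFP. One MYH6 gene (ENSDARG00000114031) was at 0 in CI_RFP, CI_BFP and UN_RFP, and one TNNT2 gene (ENSDARG00000100694) in CI_BFP and UN_BFP. TNNI1 (ENSDARG00000000474) was also at 0 in CI_BFP, and actc1b in UN_BFP.

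The mitochondrial genes gave more counts than the nuclear genes in every library. The 97 nuclear members together held 0.44% of counts in CI_RFP 11, 6.04% in CI_RFP 1 and 2.44% at the CI_RFP median. They held 1.09%, 0.653% and 1.11% in the 3 CI_BFP libraries. In UN_RFP they ranged from 1.1% to 5.82% with a median of 2.17%, and the 4 UN_BFP libraries had 1.24%, 1.08%, 2.05% and 1.04%. The 7 BFP libraries, from 0.653% to 2.05%, lay inside the range of the RFP libraries and in its lower part.

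The 13 mitochondrial members held 1.21% of counts in CI_RFP 11, 11% in CI_RFP 12 and 4.68% at the CI_RFP median. The 3 CI_BFP libraries had 2.26%, 7.39% and 3.74%, and the 4 UN_BFP libraries 4.07%, 9.78%, 10.5% and 3.33%. UN_RFP spanned 2.77% to 22.9% with a median of 11.4%, and its 2 highest libraries, UN_RFP 5 at 22.9% and UN_RFP 1 at 19.3%, are 2 of the 3 libraries with the fewest detected genes. All 4 groups overlapped in both shares.

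**Figure D1:**
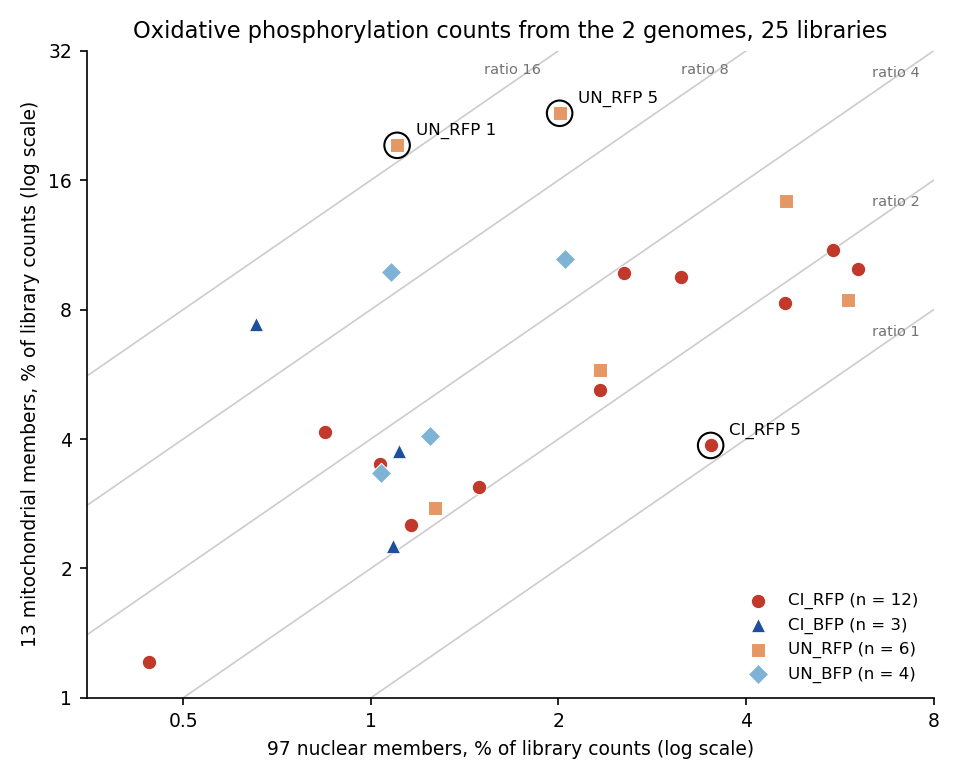
Percent of a library's counts held by the 97 nuclear members (x axis) and by the 13 mitochondrial members (y axis), both on log axes, with 1 point for each library, lines of equal ratio, and rings around the 3 libraries with the fewest detected genes. The nuclear share lies between 0.44% and 6.04% and the mitochondrial share between 1.21% and 22.9%, with UN_RFP 1 at a ratio of 17.5 and CI_RFP 5 at 1.1.

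The ratio of mitochondrial to nuclear counts ran from 1.1 in CI_RFP 5 to 17.5 in UN_RFP 1, with a median of 3.03 over the 25 libraries. It was 1.1 to 4.91 in CI_RFP, with a median of 2.2, and 2.08, 11.3 and 3.37 in the CI_BFP libraries. UN_RFP ran from 1.45 to 17.5 around a median of 2.78, and UN_BFP libraries had 3.27, 9.08, 5.12 and 3.21. The ranges of the groups overlapped. The log2 ratio had medians of 1.75 in CI_BFP and 2.03 in UN_BFP against 1.14 in CI_RFP and 1.47 in UN_RFP. The order of CI_BFP and UN_RFP turned without CI_BFP 2, where the CI_BFP median was 1.41, and without CI_BFP 1 it was 2.63.

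The ratio differed between the complexes. Their genes differ in number and length, and counts were not corrected for length, so the values describe counts and do not rank the complexes by level. For complex IV the ratio was above 1 in all libraries, 3.24 to 125, with a median of 11.1. For complex V it was mostly below 1, with a median of 0.384 and a range of 0.159 to 2.15. The ATP synthase has 20 nuclear members and MT-ATP6 and mt-atp8 from the mitochondrion. Complexes I and III lay between, with medians of 1.7 and 3.05. Within the nuclear counts, complex V held 50.2% at the median, complex I 18.3%, complex IV 17.8%, complex III 8.42% and complex II 3.03%. Within the mitochondrial counts, the 3 complex IV genes held 68.7%, the 7 complex I genes 12%, MT-CYB of complex III 11.2% and the 2 complex V genes 7.43%.

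Across the 25 libraries the summed levels of the 2 genomes' genes went together. On log2 summed CPM, Pearson's r was 0.754 and Spearman's rho 0.668 over 25 libraries, and r was 0.705 without the 2 libraries farthest from the nuclear median. Both sums share the library's depth and scaling, and on percent of counts r was 0.550, rho 0.505. Within CI_RFP r was 0.936 over 12 libraries, and within UN_RFP 0.425 over 6. Without the 3 libraries with the fewest detected genes it was 0.870 over 22. These values are descriptions.

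Members of the mitochondrial genome varied together more tightly than those of the nucleus. The median r was 0.949 over the 78 pairs of mitochondrial members, 0.653 over the 4278 pairs of tested nuclear members, and 0.411 over the 1209 pairs with one of each. All 13 mitochondrial members but only 50 nuclear members had a count in every library. The part of missing counts in these values was not tested. The nuclear members that followed the mitochondrial sum most closely were ATP5PD and ATP5PO, subunits of the ATP synthase stalk (r = 0.801 and 0.771), UQCRB of complex III (0.779) and cox6b1 of complex IV (0.770). ATP5PB, also of the stalk, followed the nuclear sum most closely (0.981). All of these had counts in UN_RFP 5, the library with the fewest detected genes and the highest mitochondrial share. Other members, such as SDHA and NDUFA9, were at 0 there. The order of members by r was not recomputed without UN_RFP 5. COX4I2, an alternative form of cytochrome oxidase subunit 4, ran opposite to both sums, with r of -0.552 with the mitochondrial and -0.574 with the nuclear sum. The summed cardiomyocyte markers had r of 0.912 with the nuclear sum and 0.672 with the mitochondrial sum, and the number of detected genes -0.197 and -0.460.

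**Figure D2:**
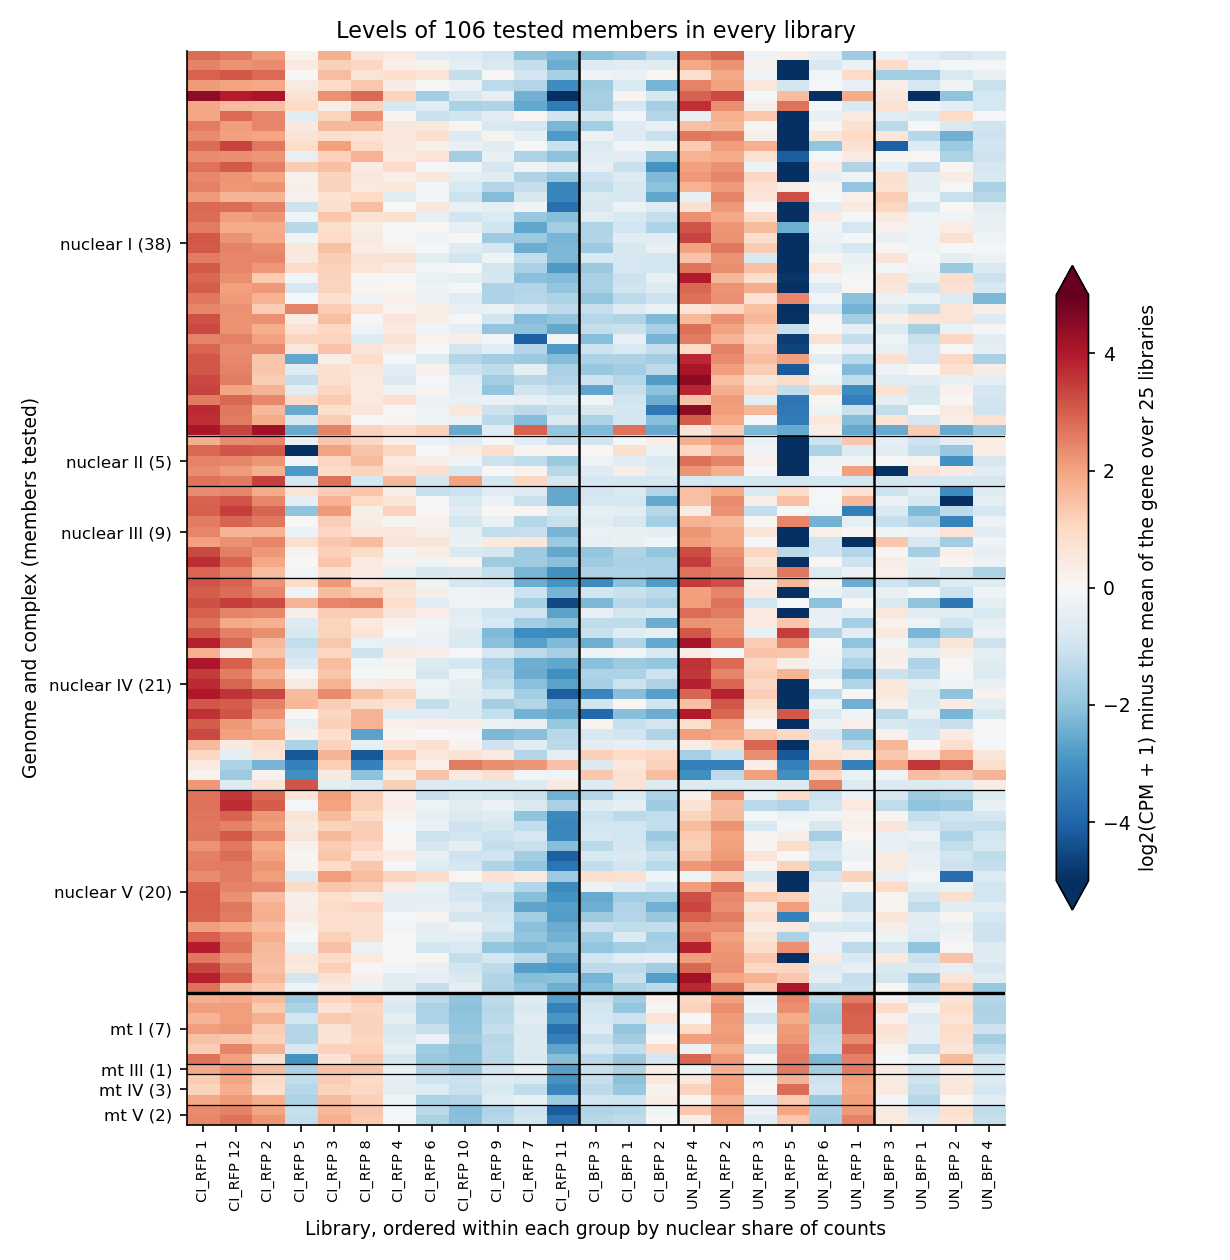
Level of each tested member (rows, by genome and complex) in each of the 25 libraries (columns, by group and then by nuclear share of counts), as log2(CPM + 1) less the member's mean over libraries, with red above and blue below that mean. The mitochondrial rows change together from library to library (median r 0.949 between pairs), and CI_RFP 11 is low in both genomes.

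The first comparison asked how recombined cells differ from cells that were not recombined. RFP and BFP libraries were set against each other, averaged over injured and uninjured hearts, with edgeR's quasi-likelihood test and Benjamini-Hochberg adjustment over 14853 genes. Most members of both genomes had a log2 fold change above 0, and few passed. Of 93 nuclear members 3 rose at an adjusted p under 0.05 and 0 fell, beside 0.37% of all tested genes higher and 0.498% lower. Of 13 mitochondrial members 0 passed in edgeR, limma voom or DESeq2, and 9 had an unadjusted edgeR p under 0.05. DESeq2 called 14 nuclear members higher, the 3 among them, beside 4.3% of all genes, and limma voom 0, beside 0.754%. Among nuclear members 50 had an unadjusted edgeR p under 0.05 and a higher level, against 9.28% of all genes. These counts depended on the scaling and tool. They were 20 nuclear and 0 mitochondrial members with median-of-ratios factors (7.22% of all genes), 18 and 0 with total counts only (7.42%), 45 and 0 with DESeq2 (6.87%) and 8 and 0 with limma voom (5.76%). In edgeR the log2 fold change was above 0 for 90 of 93 nuclear and 13 of 13 mitochondrial members, against 46.9% of all genes. It was above 0 for 89 nuclear members with DESeq2 and 82 with limma voom, beside 5426 and 5893 of 14853 genes. With limma voom 2 nuclear members were lower at an unadjusted p under 0.05, beside 1730 genes. The edgeR median was 1.94 for nuclear members, 1.38 for mitochondrial members and -0.12 for all tested genes. Relative to that last median, the members lay 2.06 and 1.49 higher. Across the alternatives they lay 1.53 to 2.18 and 1.04 to 1.46 higher, the 1.04 without the 3 libraries with the fewest detected genes.

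The markers of cardiomyocytes moved with the gate. In the same test 6 of the 21 tested cardiomyocyte markers were called higher in the RFP gate, beside 0.37% of all tested genes. All 21 were above 0, against 46.9% of all genes, and their median log2 fold change was 4.32. Summed leukocyte markers ran from 0 to 3183 CPM with a median of 89.6 in the 18 RFP libraries and from 1.02 to 4571 with a median of 1538 in the 7 BFP libraries, where 14 of the 15 genes had a count and lyz was at 0. The 9 endothelial markers had a median sum of 62.6 CPM in the RFP gate, with a range of 0 to 1174, and of 784 in the BFP gate, with a range of 216 to 1220. The 13 fibroblast and epicardial markers had medians of 937 and 4953 CPM, with ranges of 0 to 51698 and 1380 to 13153. Their direction differed by heart state. The medians were 7009 CPM in CI_RFP and 4687 in CI_BFP, but 60.7 in UN_RFP and 6163 in UN_BFP. In the gate comparisons within a heart state, 9 of 13 were above 0 after injury and 0 of 13 in uninjured hearts. The 5 smooth muscle markers had medians of 588 and 377 CPM (0.405 to 6327 and 289 to 880.0), and the 5 erythrocyte markers 0.208 and 1.17 (0 to 595 and 0 to 7.14). The part of these markers in the members' difference was not tested.

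The 3 nuclear members that rose are all subunits of complex IV. COX6A1 (ENSDARG00000054588), a copy of cytochrome oxidase subunit 6A, had 47.9 to 3428 CPM with a median of 636 in CI_RFP and 67.6 to 4324 with a median of 834 in UN_RFP. It had 93.1, 53.8 and 40.8 CPM in the CI_BFP libraries and 146, 247, 188 and 253 in the UN_BFP libraries. The 7 BFP libraries all lay under the medians of both RFP groups, and the ranges overlapped. The log2 fold change was 3.55 (SE 0.85, edgeR adjusted p = 0.0206).

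cox7a1, the form of subunit 7A used in heart and skeletal muscle in mammals, had 9.3 to 774 CPM with a median of 49.1 in CI_RFP and 35.9 to 952 with a median of 264 in UN_RFP. The CI_BFP libraries had 13.1, 10.1 and 3.06 CPM and the UN_BFP libraries 45, 11.5, 23.1 and 34.2. Its log2 fold change was 3.99 (SE 1.05, edgeR adjusted p = 0.0419). cox4i1l, by its name a relative of subunit 4, had 10.8 to 2938 CPM with a median of 684 in CI_RFP and 64.2 to 1754 with a median of 261 in UN_RFP. It had 102.0, 85.6 and 56.3 CPM in CI_BFP and 66.5, 21.5, 163 and 189 in UN_BFP. Its log2 fold change was 3.11 (SE 0.85, edgeR adjusted p = 0.0487). The ranges of the gates overlapped for both genes, with CI_RFP 11 at the low end of CI_RFP in each.

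Each of the 3 calls was lost when certain single libraries were left out. COX6A1 (ENSDARG00000054588) had an edgeR adjusted p of 0.0613 without CI_BFP 2, 0.0594 without CI_BFP 3 and 0.0629 without UN_RFP 4. cox7a1 was not called in 9 of the fits that left out 1 library each (CI_RFP 1, CI_BFP 1, 2 and 3, UN_RFP 2, 4 and 5, UN_BFP 2 and 3), and cox4i1l in 16 (CI_RFP 1, 2, 3, 5, 8 and 12, CI_BFP 1, 2 and 3, UN_RFP 2, 3, 4 and 5, UN_BFP 1, 2 and 3). Without the 3 libraries with the fewest detected genes, COX6A1 was called (edgeR adjusted p = 0.0444, beside 0.169% of genes higher), cox7a1 had 0.0534 and cox4i1l 0.0984. In that setting 81 of 93 nuclear members and 1 of 13 mitochondrial members had an unadjusted p under 0.05, against 11% of genes, and the medians were 2.13 and 1.08.

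The rest of complex IV was uneven. COX5B (ENSDARG00000068738), a copy of subunit 5B, had a log2 fold change of 3.62 (SE 1.03, edgeR adjusted p = 0.0597) and COX7C one of 3.12 (SE 0.91, adjusted p = 0.0626), and neither passed. In edgeR only 3 tested nuclear members had a log2 fold change below 0, and all belong to complex IV. They were COX4I2 at -1.05 (edgeR adjusted p = 0.814), COX7A2 (ENSDARG00000110700) at -1.09 (0.838) and cox6a1 (ENSDARG00000022438) at -0.69 (0.912). COX4I2 was counted in 10 of 12 CI_RFP and 2 of 6 UN_RFP libraries, with medians of 16.7 and 0 CPM. It was counted in all 7 BFP libraries, at 14.5, 22 and 5.27 CPM in CI_BFP and 121, 82.1, 37.7 and 17.1 in UN_BFP.

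All tested nuclear members of complexes I, II, III and V had a log2 fold change above 0 in edgeR, and edgeR called none of them. DESeq2 called NDUFA4, NDUFB1, ndufa11, UQCRC2, UQCRB, atp5f1e, ATP5PF and atp5md among them, beside 4.3% of all genes higher. Without CI_RFP 11, edgeR called NDUFA4 (adjusted p = 0.042), CYC1 (0.0472) and ATP5F1B (0.0213). CI_RFP 11 had the lowest share of counts in both genomes' members, and the share of all genes called without it is not given here. In complex I the median log2 fold change was 1.85. Of its 38 tested nuclear members 14 had an unadjusted edgeR p under 0.05, against 9.28% of all genes higher. NDUFA4, named as a complex I subunit but known as a subunit of complex IV, had the smallest p among them, with a log2 fold change of 2.46 (SE 0.79, edgeR adjusted p = 0.0765). It stood at 89.7 to 3009 CPM with a median of 544 in CI_RFP, 119.9, 171 and 101 in CI_BFP, 126 to 3146 with a median of 461 in UN_RFP, and 295, 243, 346 and 273 in UN_BFP. In complex II, which holds succinate dehydrogenase, 0 of 5 had an unadjusted p under 0.05 and the median was 1.33. SDHB, its iron-sulfur subunit, had 97.3 to 1188 CPM with a median of 239 in CI_RFP and 207, 274 and 115 in CI_BFP. In UN_RFP it had a median of 376 and was at 0 in UN_RFP 5, and in UN_BFP it had 108, 158, 156 and 288. UN_RFP 5 had no count in any complex II gene.

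In complex III 7 of 9 nuclear members had an unadjusted edgeR p under 0.05, against 9.28% of all genes higher, with a median of 2.33. CYC1, cytochrome c1, had a log2 fold change of 2.52 (SE 0.83, edgeR adjusted p = 0.0805). Its level was 49.5 to 2590 CPM with a median of 365 in CI_RFP and 272 to 1526 with a median of 806 in UN_RFP. It had 161, 48.5 and 159 in CI_BFP and 170.0, 0.194, 240.4 and 210.3 in UN_BFP, so UN_BFP 2 was under the floor of 3 counts. In complex V 17 of 20 had an unadjusted edgeR p under 0.05, against the same share of all genes, with a median of 2.02. The counts by complex come from the main edgeR fit alone. ATP5F1B, the catalytic beta subunit, had a log2 fold change of 2.36 (SE 0.69, edgeR adjusted p = 0.0626). It ran from 354 to 22073 CPM with a median of 2685 in CI_RFP and from 905 to 8872 with a median of 1884 in UN_RFP, and had 1109, 625.04 and 692 in CI_BFP and 547, 628, 1072 and 1190 in UN_BFP.

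The mitochondrial members gave a narrow band of log2 fold changes in the same comparison, from 1.10 for MT-CO3 to 1.82 for MT-ND3. MT-ATP6, the channel subunit of the ATP synthase, had the smallest p (1.66, SE 0.64, edgeR adjusted p = 0.129). It stood at 212 to 21225 CPM with a median of 2684 in CI_RFP and 1252 to 17319 with a median of 12339 in UN_RFP, with 1419, 3280 and 1349 in CI_BFP and 2122, 6452, 5206 and 1555 in UN_BFP. MT-CYB, cytochrome b, had 1.49 (adjusted p = 0.155) and MT-CO2, an electron-accepting core subunit of complex IV, 1.37 (adjusted p = 0.156). The BFP libraries lay inside the RFP range for each of these 3 genes. MT-ATP6 and mt-atp8 overlap, as do MT-ND4 and mt-nd4l, and MT-ND6 lies opposite to other genes. The strand setting of the counting is not given, so their separate values are uncertain.

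**Figure D3:**
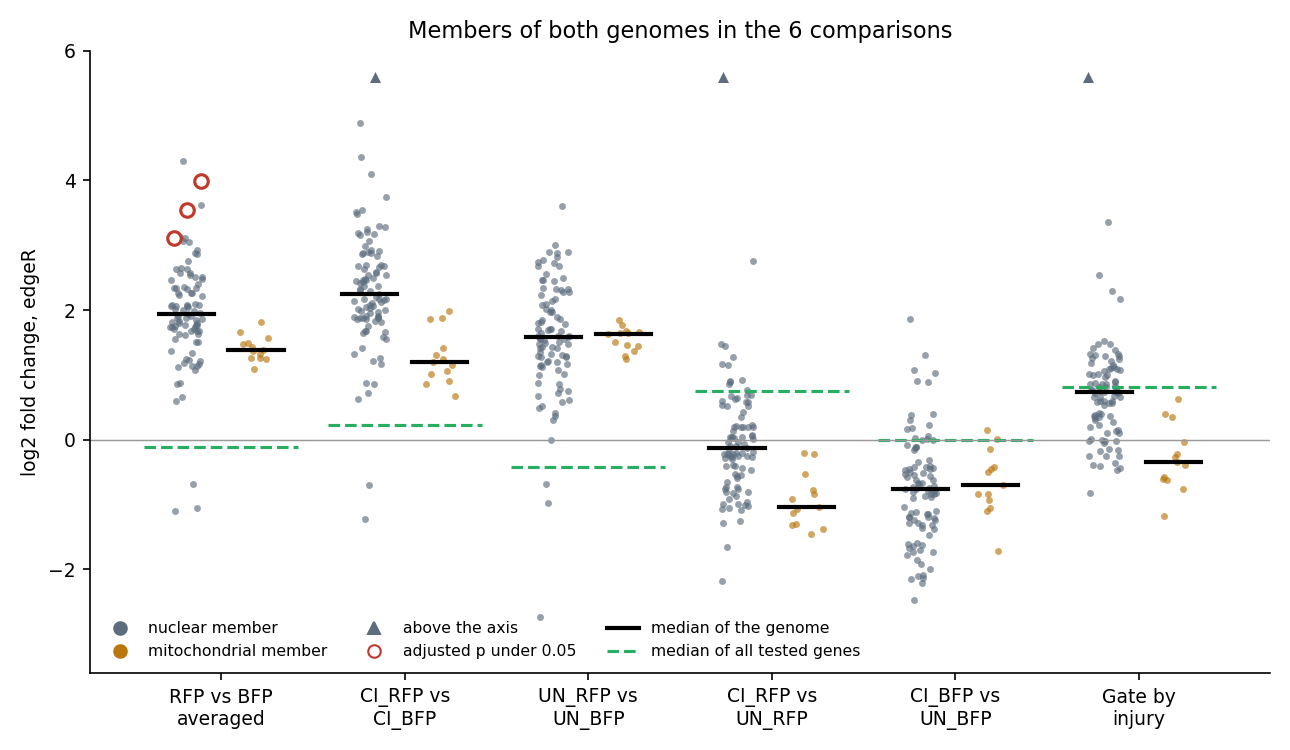
Fitted log2 fold change (y axis) of each tested member in the 6 comparisons (x axis), nuclear in grey and mitochondrial in brown, with black bars at the median of each genome's members and dashed lines at the median of all tested genes. In the averaged gate comparison the medians are 1.94 and 1.38 against -0.12 for all genes, and red rings mark the 3 nuclear members with an adjusted p under 0.05. Triangles are SDHD (ENSDARG00000055712), whose fitted value lies above the axis where the other group had no count.

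Both gate comparisons within one heart state had member medians above 0, and edgeR called no member in either. After injury, CI_RFP against CI_BFP had median log2 fold changes of 2.24 for nuclear and 1.2 for mitochondrial members, beside 0.22 for all genes. Positive were 91 of 93 and 13 of 13 (55.3% of all genes), and 25 nuclear and 0 mitochondrial members had an unadjusted p under 0.05 and a higher level (7.65% of all genes). No member and no other gene passed adjustment in edgeR (0.0% called). limma voom called 0 members, beside 0.882% of genes higher, and DESeq2 called COX6A1 (ENSDARG00000054588) higher, beside 2.94% of genes. COX6A1 had a log2 fold change of 4.09 (edgeR adjusted p = 0.404), COX5B (ENSDARG00000068738) 4.89 (0.524), MT-ATP6 1.86 and mt-atp8 1.88. The mitochondrial median depended on the scaling: it was 0.02 with 7 of 13 members above 0 in DESeq2 and with median-of-ratios factors, and 0.44 with 12 of 13 with total counts only. Relative to the median of all genes it was 0.40 to 1.01 over the alternatives, and the nuclear median 1.38 to 2.06.

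In uninjured hearts, UN_RFP against UN_BFP had medians of 1.58 and 1.62, beside -0.43 for all genes. Positive were 89 of 93 and 13 of 13 (38.8% of all genes), and 12 nuclear members and 1 mitochondrial member had an unadjusted p under 0.05 (6.56% of all genes). No member was called in edgeR (0.0% of all genes). DESeq2 called cox7a1 higher, beside 2.03% of genes, and limma voom called 0 higher, beside 0.0135%, and COX4I2 lower, beside 0.949%. COX6A1 (ENSDARG00000054588) had a log2 fold change of 3.01 (edgeR adjusted p = 0.122), cox7a1 3.61 (0.127), MT-CO2 1.67 and MT-CYB 1.66. With limma voom 58 of 93 nuclear members were above 0, with a median of 0.63. Without the 3 libraries with the fewest detected genes the mitochondrial median was 0.76. CYC1 was higher in every UN_RFP than in every UN_BFP library, which held for 0.0606% of all genes, but not on counts per total count, where 0.0202% of genes had no overlap in that direction.

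For families of complex IV subunits with more than 1 copy, the share of a family's counts held by each copy was compared. This share does not depend on a library's scaling, but it can move with the summed level. COX6A1 (ENSDARG00000054588) had r of 0.916 with the nuclear sum and cox6a1 (ENSDARG00000022438) -0.187, while COX5A and cox5aa had 0.667 and 0.610. The part of cell types in the shares was not tested. These shares are descriptions, and counts of near-identical copies may be split uncertainly by the counting. COX6A1 (ENSDARG00000054588) held 79% to 100% of the subunit 6A counts in CI_RFP, with a median of 95%, and 72.8% to 100% in UN_RFP, with a median of 96.7%. It held 82.8%, 79.5%, 80.1% and 90.2% in UN_BFP, and 72.1%, 58.7% and 49.5% in CI_BFP. Every CI_BFP library was below every CI_RFP and every UN_BFP library. The other copy, cox6a1 (ENSDARG00000022438), makes up the rest and had 36, 37.8 and 41.7 CPM in CI_BFP, inside the UN_BFP range of 27.4 to 63.8.

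cox7a1 held 15.4% to 55.7% of the subunit 7A counts in CI_RFP, with a median of 32.5%, and 29.9% to 86.5% in UN_RFP, with a median of 45.9%. It held 18.6%, 13.3% and 2.81% in CI_BFP and 38.6%, 10.7%, 21.5% and 22.8% in UN_BFP. The family was taken by symbol and also holds COX7A2L, so these shares do not set the muscle form against the broad form alone. In CI_BFP 3, the library at 2.81%, COX7A2L had 519 counts beside 25 of cox7a1. COX7A2 (ENSDARG00000110700), a copy named for the broadly expressed mammalian form, held 0% to 14.8% in CI_RFP and 0% to 13.6% in UN_RFP. It held 18.3%, 31% and 18.8% in CI_BFP and 20.0%, 18.5%, 5.73% and 17.6% in UN_BFP. Its share in every CI_BFP library was above every CI_RFP library, while 1 UN_BFP library lay within the UN_RFP range. The other copy of that name, COX7A2 (ENSDARG00000053217), had shares that overlapped between the gates, 1.33% to 35.9% in the RFP libraries and 17.1% to 47.5% in the BFP libraries. Its log2 fold change in the averaged gate comparison was 1.68 (SE 1.03, edgeR adjusted p = 0.429).

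COX5B (ENSDARG00000068738) held 9.14% to 85.3% of the subunit 5B counts in CI_RFP, with a median of 57.3%, and 14.1%, 14.3% and 6.57% in CI_BFP. In UN_RFP it ran from 0% to 91.3% with a median of 48.1%, and in UN_BFP it held 35.8%, 11.4%, 44.3% and 51.4%. cox4i1l had median shares of the subunit 4 counts of 50.1% and 49% in CI_RFP and UN_RFP against 37.3% and 25.4% in CI_BFP and UN_BFP. COX4I2, induced by low oxygen in mammals, had medians of 1.45% and 0% in the RFP groups against 5.6% and 16.8% in the BFP groups, injured first. cox8b, whose counterpart in the mouse is the muscle form of subunit 8, had medians of 76.3% and 77.3% in the RFP groups against 62.3% and 61% in the BFP groups. The gates overlapped for cox4i1l, COX4I2 and cox8b in injured and in uninjured hearts. In CI_RFP 7 cox8b had 143 counts beside 159 of cox8a. In CI_RFP 11 cox4i1l had 85 counts beside 481 of COX4I1 and 217 of COX4I2. In the subunit 6B family cox6b1 held 52.1%, 74.2% and 43.1% in CI_BFP, 20% to 51.3% in CI_RFP, 23.8% to 74.7% in UN_RFP and 14.2% to 45% in UN_BFP, so the groups overlapped. In the subunit 5A family cox5aa had medians between 68.8% and 76.2% in the 4 groups, with overlap.

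**Figure D4:**
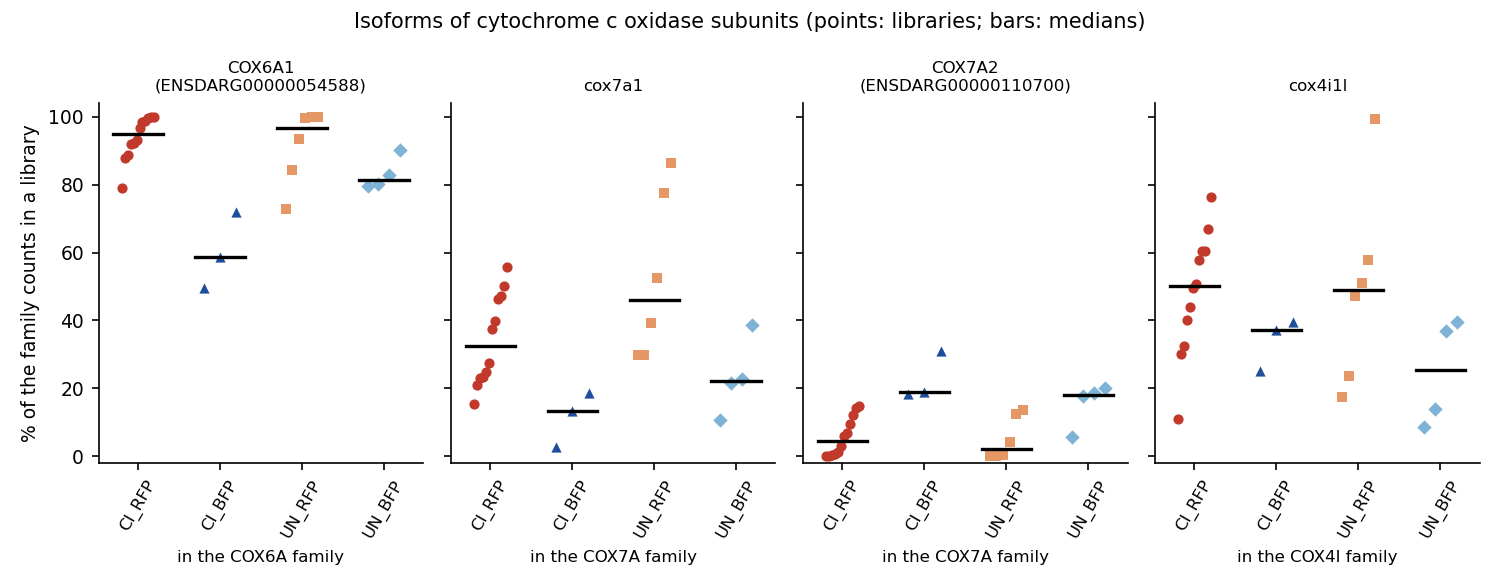
Percent of a subunit family's counts (y axis) held by 4 copies of complex IV subunits, 1 panel each, with 1 point for each library by group (x axis) and bars at the group medians. The COX6A1 share is 49.5% to 72.1% in the 3 CI_BFP libraries and 79% or more in CI_RFP, and the COX7A2 (ENSDARG00000110700) share is 18.3% to 31% against at most 14.8%.

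The second comparison asked how injury differs from no injury within each gate. In the BFP gate, CI_BFP against UN_BFP, no member and no other gene was called by edgeR (0.0% called), and 0 members had an unadjusted p under 0.05, beside 5.51% of genes higher and 3.57% lower. limma voom also called 0 members (0.0606% of genes higher, 0.0135% lower), as did DESeq2 (1.4% higher, 1.77% lower). The median log2 fold change was -0.76 for nuclear and -0.69 for mitochondrial members, beside 0.00 for all genes. Only 15 of 93 and 2 of 13 were above 0, against 49.8% of all genes. In DESeq2 and with median-of-ratios factors the medians were -0.26 and -0.13, with 31 of 93 and 6 of 13 above 0. Relative to all genes these came to -0.73 and -0.59. For 25 of 93 nuclear members every CI_BFP library was below every UN_BFP library, against 1.88% of all genes. The 25 hold 12 of complex I, 1 of complex III, 7 of complex IV and 5 of complex V, and the count was also 25 on counts per total count, against 1.74% of genes. With 1 library left out it was 25 to 38, the highest without CI_BFP 1. Nuclear members varied together across libraries (median r 0.653 between pairs), so these members are not independent results. Cell type markers moved between these groups too. Of 13 tested leukocyte markers 13 were above 0 (median 1.36), and of 21 cardiomyocyte markers 5 (median -1.05), with 3 lower ones at an unadjusted p under 0.05. Their summed levels were 1538 to 4571 against 1.02 to 3917 CPM and 6410 to 14942 against 1326 to 16686 CPM. Above 0 were also 8 of 13 fibroblast and epicardial, 3 of 9 endothelial, 1 of 4 smooth muscle and 0 of 2 erythrocyte markers. The part of these markers in the members' difference was not tested.

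ATP5MG, a membrane subunit of the ATP synthase, had 55.8, 56.7 and 31.7 CPM in CI_BFP and 97, 326, 210.4 and 94.4 in UN_BFP (log2 fold change -1.92, SE 1.31, edgeR adjusted p = 0.935). COX5B (ENSDARG00000068738) had 20.2, 13.1 and 8.21 against 54.4, 21.4, 130.0 and 103 (-2.48, SE 1.5, adjusted p = 0.776). COX6A1 and COX7C were also among the 25, as were NDUFA4, cox6c and ATP5PF. Of the mitochondrial members, MT-ND3 was lower in every CI_BFP library, at 21.9, 44.8 and 32.5 against 65.6, 247, 76.5 and 47.2 (-1.72, SE 1.44, adjusted p = 1.0). The mitochondrial median ran from -1.36 to -0.30 with 1 library left out. The SE of these members, 1.31 to 1.5, comes from the fit over all 25 libraries and takes its spread from all 4 groups. At such an SE a comparison of 3 with 4 libraries resolves little. In a fit of these 2 groups alone, edgeR also called 0 members. There 6 of 90 nuclear and 0 of 13 mitochondrial members had an unadjusted edgeR p under 0.05 and a lower level, beside 188 of 10351 genes.

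In the RFP gate, CI_RFP against UN_RFP, edgeR called 0 members, beside 0.00673% of all genes higher and 0.0202% lower. DESeq2 called MT-CO2, MT-ND2, MT-ND6 and atp5mea lower, beside 0.182% of genes, and SDHD (ENSDARG00000055712) higher, beside 5.62%. limma voom called that SDHD alone among the members, beside 3.12% of genes higher. The 2 genomes' genes differed in their medians, -0.13 for nuclear and -1.03 for mitochondrial members, beside 0.75 for all genes. Above 0 were 41 of 93 nuclear and 0 of 13 mitochondrial members, against 69.4% of all genes. Relative to the median of all genes the members lay at -0.89 and -1.78, and across the alternatives at -0.87 to -1.21 and -0.86 to -2.83. An unadjusted p under 0.05 with a lower level was found for 3 mitochondrial and 2 nuclear members, against 1.11% of all genes, and with a higher level for 2 nuclear members, against 15.8%.

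MT-CO2 had 1409 to 48850 CPM with a median of 9279 in CI_RFP and 7130 to 94107 with a median of 41643 in UN_RFP (log2 fold change -1.30, SE 0.55, edgeR adjusted p = 0.148). MT-ND6, a complex I subunit, had medians of 380.4 and 2241 (-1.45, SE 0.70, adjusted p = 0.254), and MT-ND2 of 1032 and 6261 (-1.32, SE 0.65, adjusted p = 0.265). atp5mea, a small membrane subunit of the ATP synthase, had 3.31 to 159 CPM with a median of 17.1 in CI_RFP and 9.76 to 383 with a median of 101 in UN_RFP (-2.17, SE 1.03, adjusted p = 0.230). The groups overlapped for each of these genes. SDHD (ENSDARG00000055712), a membrane anchor of complex II, was counted in 7 of 12 CI_RFP libraries, at up to 19 CPM, and was at 0 in the other 13 libraries.

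The medians rest on few libraries. Without the 3 libraries with the fewest detected genes, the medians were -0.45 for nuclear and -0.22 for mitochondrial members, and 6 of 13 mitochondrial members were above 0. The nuclear median was 0.18 without UN_RFP 2 and 0.32 without UN_RFP 4. The mitochondrial median ran from -1.28 to -0.61 with 1 library left out. Summed fibroblast and epicardial markers also differed between these groups, with 0 to 51698 CPM and a median of 7009 in CI_RFP and 0 to 3303 with a median of 60.7 in UN_RFP. The part of these markers in the medians was not tested.

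The make-up of the mitochondrial counts also differed. MT-CO1, the catalytic subunit of cytochrome oxidase, held 15.2% to 39.6% of the 13 genes' counts in CI_RFP, with a median of 24%, and 11.1% to 18.7% in UN_RFP, with a median of 14.4%. The share was 31.2%, 21.7% and 23.5% in CI_BFP and 16.5%, 16%, 14.7% and 25% in UN_BFP. MT-CO2 had the opposite order in the RFP gate, with 16.2% to 33.1% and a median of 21.6% in CI_RFP and 20% to 36.7% and a median of 31.2% in UN_RFP. It held 19.3%, 21.9% and 21.2% in CI_BFP and 21.5%, 25.2%, 26.2% and 24% in UN_BFP. MT-CO3 was steadier, at 18.1% to 31.1% over all 25 libraries with a median of 24.5%, and MT-ND3 held 0.0439% to 0.641%. The ranges of CI_RFP and UN_RFP overlapped for MT-CO1 and MT-CO2.

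**Figure D5:**
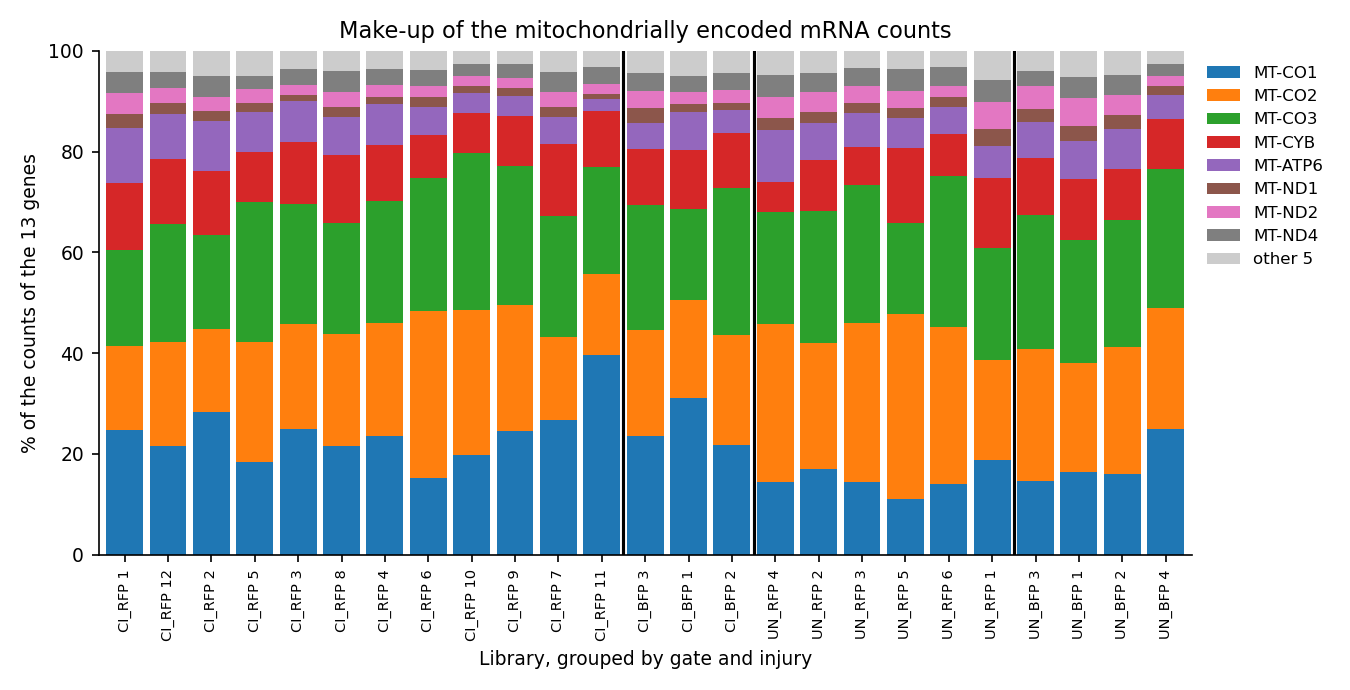
Stacked percent of the 13 mitochondrial genes' counts (y axis) held by 8 genes and by the other 5 together in each library (x axis, by group). MT-CO1 has a median of 24% in CI_RFP and 14.4% in UN_RFP, and MT-CO2 21.6% and 31.2%.

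The test of the difference between both gate effects, the interaction of gate and injury, called 0 members and 0.0% of all genes in edgeR, and 0 members had an unadjusted p under 0.05, beside 8.53% of genes higher and 2.92% lower. limma voom called 0 members (0.0135% of genes higher, 0.0% lower), as did DESeq2 (3.64% higher, 1.1% lower). Its median was 0.73 for nuclear and -0.35 for mitochondrial members, beside 0.81 for all genes, which puts them at -0.08 and -1.16 relative to all genes. COX5B (ENSDARG00000068738) had 2.55 (SE 1.73, adjusted p = 0.693), COX4I2 3.36 (SE 2.65, 0.822), mt-nd4l -1.18 (SE 1.42, 1.0) and MT-ND5 -0.76 (SE 1.25, 1.0). The mitochondrial median was 0.49 without the 3 libraries with the fewest detected genes, 0.27 without CI_BFP 2 and 0.00 without UN_RFP 1. A difference between the injured and uninjured gate effects was therefore not shown for either genome's genes.

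Other genes of the pathway were counted from lists of their own, and edgeR called 0 of them in any of the 6 comparisons. Of all genes it called 0.37% higher and 0.498% lower in the averaged gate comparison, and at most 0.0202% in either direction in the others. Calls of these lists by limma voom and DESeq2 are not given here. In the averaged gate comparison the 46 tested assembly factors had a median log2 fold change of 1.54, with 39 above 0. The 25 genes of mitochondrial DNA maintenance and transcription had 1.22 with 17 above 0, and the 75 mitoribosomal proteins 1.05 with 66 above 0. The 10 electron carriers and nucleotide exchangers had 1.76 with 9 above 0, and the 19 genes of the TCA cycle 1.67 with 17 above 0. Of all genes, 46.9% were above 0. An unadjusted p under 0.05 was reached by 4 of the 46, 9 of the 25 (5 higher and 4 lower), 3 of the 75, 5 of the 10 and 9 of the 19, against 9.28% of all genes higher and 8.24% lower. The counts of assembly factors and mitoribosomal proteins were not above that background. All these medians lie under the 1.94 of the nuclear members, and that difference was not tested. Among the TCA cycle genes IDH2, mitochondrial isocitrate dehydrogenase, had the smallest p (2.36, SE 0.74, edgeR adjusted p = 0.0751). Its medians were 730 and 1313 CPM in CI_RFP and UN_RFP against 304 and 275 in CI_BFP and UN_BFP. The gates overlapped, with 197 to 5238 and 291 to 2073 CPM against 139 to 386 and 146 to 423 in the same group order.

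The 10 regulators of mitochondrial biogenesis had a median of 1.83 in the averaged gate comparison, with 6 above 0, against 46.9% of all genes. Of the 10, 3 had an unadjusted edgeR p under 0.05 and a higher level, against 9.28% of all genes. PPARGC1A, a coactivator of mitochondrial gene expression, had a count in 10 of 12 CI_RFP, 1 of 3 CI_BFP, 2 of 6 UN_RFP and 1 of 4 UN_BFP libraries. ESRRA, an orphan nuclear receptor that acts with it, had a count in 12 of 12, 1 of 3, 4 of 6 and 3 of 4, with group medians of 28.5, 0, 2.71 and 2.43 CPM. ESRRG, a related receptor, had an adjusted p of 0.0729 in edgeR in the averaged gate comparison. It ran from 0 to 51.3 CPM with a median of 12.4 in CI_RFP. In UN_RFP it ran from 0 to 14.6 CPM with a median of 0.112, under the floor of 3 counts. It was at 0 in all CI_BFP libraries and at most 0.349 CPM in UN_BFP. TFAM of the maintenance list, which packages mitochondrial DNA, had medians of 14.6, 10.0, 10.4 and 11.8 CPM in the same group order, and NRF1, a transcription factor of nuclear mitochondrial genes, 12.8, 17.2, 0.40 and 13.5. None of these genes passed the test in any of the 6 comparisons.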

How the data were processed

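Per the labels, the authors deposited raw read counts per Ensembl gene for each of 25 Smart-seq2 libraries. The submitters' processing notes name FastQC 0.11.5, HISAT2 2.1.0, featureCounts 1.6.0 and the GRCz11 build. The sources used here give no settings, annotation release or strand, and which tool made the counts is not settled. Names in the human style came from a table that matched 29178 of 31901 IDs (91.5%), and 9 members share their symbol with another ID. Counts were kept by filterByExpr, scaled by TMM and fitted with edgeR 4.0.16 (robust quasi-likelihood, two-sided, R 4.3.3) as 4 group means over all 25 libraries, adjusted by Benjamini-Hochberg over 14853 genes. The common biological coefficient of variation was 2.127. The SE is the size of the log2 fold change over the square root of F. limma 3.58.1 voom and DESeq2 1.42.0 were alternatives. The pipeline was tested on simulated data, with changes far larger than the members' median changes and with the spread of each gene capped. That run does not show how often changes of the members' size are found at the spread of these libraries. Shares, ratios and correlations carry no p. The members, lists and rule for named genes (all mitochondrial members, the highest and the smallest-p nuclear member of each complex, subunit copies, and the smallest p in each comparison) were chosen with earlier results of these data known. The 25 genes without overlap between BFP groups and the regulators given by level were named after their values were seen. Sequences are not given here. The result of 1 member is not reported here.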

Additional observations from a re-analysis of the deposited data

Results flagged for a closer look

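In 7 of 86 groups of values tested, 1 library stood far from the rest of its group, and chance flags about 1 in 20. Among the UN_RFP libraries, UN_RFP 2 was far above the others for ATP5F1B (8872 CPM) and COX5A (694 CPM), UN_RFP 3 for cox6a1 (ENSDARG00000022438; 92.5 CPM) and cox8a (249 CPM), and UN_RFP 6 for COX4I2 (46.2 CPM). Among the UN_BFP libraries, UN_BFP 2 was far above for MT-ND3 (247 CPM) and UN_BFP 3 for cox5aa (325 CPM), the copies of complex IV subunit 5A being COX5A and cox5aa.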

How the results depend on the processing

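In the averaged gate comparison the number of nuclear members called, 3 in edgeR, was 14 with DESeq2, 0 with limma voom, 0 with median-of-ratios size factors, 1 with total counts only, 5 with the mitochondrially encoded counts left out, 7 with no filter on low counts and 1 without the 3 libraries with the fewest detected genes. It ran from 0 (without CI_BFP 2, CI_BFP 3 or UN_RFP 4) to 11 (without CI_RFP 11) with 1 library left out, and was 10 without UN_RFP 6, 5 without CI_RFP 7 and 1 without CI_RFP 1, CI_BFP 1, UN_RFP 2, UN_RFP 5, UN_BFP 2 or UN_BFP 3. The shares of all genes called in the fits with 1 library left out are not given here. Whether these numbers follow a general change in calls is thus not shown. The cause was not tested. Of all 14853 genes, 55 were called higher in edgeR, 638 with DESeq2 and 112 with limma voom. The number was 23 with median-of-ratios size factors and 27 with total counts only. It was 76 of 14765 with the mitochondrially encoded counts left out and 139 of 22759 with no filter on low counts. Without the 3 libraries with the fewest detected genes it was 25 of 14805. DESeq2 called 1 nuclear member in CI_RFP against CI_BFP, 1 in UN_RFP against UN_BFP, and 2 nuclear and 3 mitochondrial members in CI_RFP against UN_RFP. limma voom called 1 nuclear member in each of the last 2. The nuclear median of CI_RFP against UN_RFP was 0.51 with voom and ran from -0.44 to 0.32 with 1 library left out. The interaction's nuclear median was -0.092 with DESeq2 and with median-of-ratios factors. Its mitochondrial median was -1.74 with both, 0.49 without the 3 libraries with the fewest detected genes, and -0.81 to 0.27 with 1 left out. In the interaction without those 3 libraries mt-nd4l was at 0.14 and MT-ND5 at 0.22. In the averaged gate comparison SDHB was at -0.00042 with voom, and cox8a at -0.079 with DESeq2 and median-of-ratios factors and -0.40 with voom. The CI_BFP median of the nuclear share was 0.774% on TMM-scaled CPM. The r between the genomes was 0.536 on the mean of log2(CPM + 1) over members, 0.870 without the 3 libraries and 0.550 on percent of counts. The non-overlap count in the BFP gate ran from 25 to 38 with 1 library left out. The last value of r and the non-overlap alternatives were chosen after seeing the data. The other medians over members kept their sign in the alternatives run, with shifts in size. The CI_RFP against CI_BFP mitochondrial median was 0.02 with DESeq2 and median-of-ratios factors, and the CI_BFP median log2 ratio was 1.41 to 2.63 with 1 library left out. For single named genes, 370 values under other settings kept direction and call, 13 newly passed and 10 no longer passed, and with 1 library left out 1410, 12 and 28 did. No paired analysis was possible because the labels give the groups no shared replicate numbers. With 20 cells a library and a large spread between libraries, a member that did not pass is not shown to be equal between groups.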
